A study of Rattus norvegicus with 10 samples.

Results

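The AMPA and kainate receptor subunits and the vesicular glutamate transporters were followed in the L6 dorsal root ganglia (DRG) of rats given an siRNA against Scn9a. None of the 10 genes passed the test for treatment, which called 0 of the 15186 genes tested (0%), and so not Scn9a itself. Grik5, a high-affinity kainate receptor subunit, had the lowest unadjusted p, at 64.2 ± 9.70 CPM (estimated counts scaled to library size) in SCN9A_2544 ganglia and 50.0 ± 9.76 CPM in PBS ganglia (SD, n = 5 each), and it did not pass once p was adjusted over all genes. From the lowest to the highest of the 10 libraries, with both groups pooled, the genes spanned 1.84-fold (Gria3) to 6.64-fold (Slc17a8). That span includes any difference between the groups, so it does not compare the spread within groups with the treatment difference. Grik1, Gria1, Gria2, Gria4, Slc17a6 and Slc17a7 were higher in libraries with more neuronal RNA, as were 21.9% of all genes, but the calls of Gria1, Gria4 and Slc17a6 were lost without SCN9A_2544 replicate 3, while Grik2, Grik5, Gria3 and Slc17a8 were not shown to follow it. Beyond this shared variation, the vesicular transporters Slc17a6 and Slc17a7 deviated in opposite directions in 9 of the 10 libraries. Of all pairs among the 10 genes, theirs had the strongest residual correlation, though genes picked from all those tested reached stronger ones with each.

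The genes were chosen by name: Grik1, Grik2 and Grik5 (kainate receptor subunits), Gria1, Gria2, Gria3 and Gria4 (the AMPA receptor subunits), and Slc17a6, Slc17a7 and Slc17a8 (the vesicular glutamate transporters VGLUT2, VGLUT1 and VGLUT3). All 10 had a row among the 30560 genes of the count table, and all 10 were among the 15186 genes that passed the filter on low counts. Ganglia came from Sprague Dawley rats aged 7 to 8 weeks that all carried an intrathecal lumbar catheter and all received the analgesic meloxicam. The SCN9A_2544 group (5 libraries) was dosed through the catheter, 5 days after surgery, with 0.75 mg of a divalent siRNA directed at Scn9a, which encodes the voltage-gated sodium channel Nav1.7 of nociceptors, and the PBS group (5 libraries) was given phosphate-buffered saline. The labels state a timepoint of 14 days, random allocation of animals, and the study's question, which was the specificity of the siRNA. They do not say whether each library is a separate animal. The p-values are therefore relative to the spread among libraries, some of it possibly technical. No group with a non-targeting siRNA was analysed here.

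Glutamate is the main fast transmitter of primary sensory neurons. VGLUT proteins load it into synaptic vesicles: VGLUT1 is known mainly from large myelinated afferents, VGLUT2 from most nociceptors and other afferents, and VGLUT3 from a small group of unmyelinated low-threshold mechanoreceptors. AMPA and kainate receptors are tetrameric cation channels opened by glutamate. They sit on spinal neurons and also on the sensory neurons themselves, where kainate receptors containing the GluK1 subunit (Grik1) are a hallmark of small-diameter DRG neurons in rodents and can modulate transmitter release from central terminals.

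Libraries held between 11832376 and 15420006 estimated counts. The siRNA target was lower in the treated ganglia, with Scn9a at 85.4 ± 23.9 CPM in SCN9A_2544 libraries and 175 ± 50.2 CPM in PBS libraries (SD, n = 5 each), in groups that did not overlap (44.6 to 103 CPM in SCN9A_2544 against 132 to 257 CPM in PBS). Its log2 fold change of -1.03 did not pass edgeR's quasi-likelihood test with Benjamini-Hochberg adjustment over all genes (adjusted p = 0.963), while the two-sided exact permutation p of 0.00794 is the smallest that 5 against 5 allows. Markers of the labelled tissue were present: Prph, the peripheral neuron intermediate filament, was at 1080 to 2548 CPM in SCN9A_2544 and 1304 to 2615 CPM in PBS libraries. Of 12 central glia and spinal cord genes 2 passed the filter on low counts. Olig1 and Olig2 were at 0 in 6 and 7 of the 10 libraries, Mog was detected in 8 (up to 1.15 CPM in SCN9A_2544 and 1.62 CPM in PBS) and Mobp in 10, and Gfap was at 28.0 to 149.8 CPM in SCN9A_2544 and 17.5 to 99.9 CPM in PBS libraries. Gad1 was at 1.31 to 3.74 CPM in SCN9A_2544 and 1.97 to 6.61 CPM in PBS libraries. Aqp4 and Slc6a5 were detected in all 10 libraries, at up to 1.02 and 0.94 CPM. Neuron content varied widely. The mean of 20 pan-neuronal genes, none of them a glutamate receptor or transporter, lay between 7.60 and 8.98 log2 CPM in the SCN9A_2544 group and between 7.77 and 9.00 log2 CPM in the PBS group. It was lowest in SCN9A_2544 replicate 3, PBS replicate 3 and PBS replicate 5. The mean of 17 Schwann cell and myelin genes ran the other way, highest in those same 3 libraries, at 9.97 log2 CPM in SCN9A_2544 replicate 3 and at 9.98 and 9.68 log2 CPM in the PBS pair. Neither mean separated the groups (exact permutation p = 0.778 for the pan-neuronal and p = 0.603 for the Schwann cell mean). The mean of the 2 central glia and spinal cord genes that passed the filter, Gfap and Gad1, was also highest in the 3 libraries lowest in neuron content. It was 4.34 log2 CPM in SCN9A_2544 replicate 3, 3.86 log2 CPM in PBS replicate 3 and 4.68 log2 CPM in PBS replicate 5. In those libraries, in that order, Gfap was at its highest, 149.8, 99.9 and 97.5 CPM. Gad1 was at 2.59, 1.97 and 6.61 CPM there, and at 3.74 CPM in the neuron-rich SCN9A_2544 replicate 2. Whether any of this RNA came from central tissue was not tested. In such bulk samples, fewer cells of a type and less RNA per cell cannot be told apart.

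**Figure D1:**
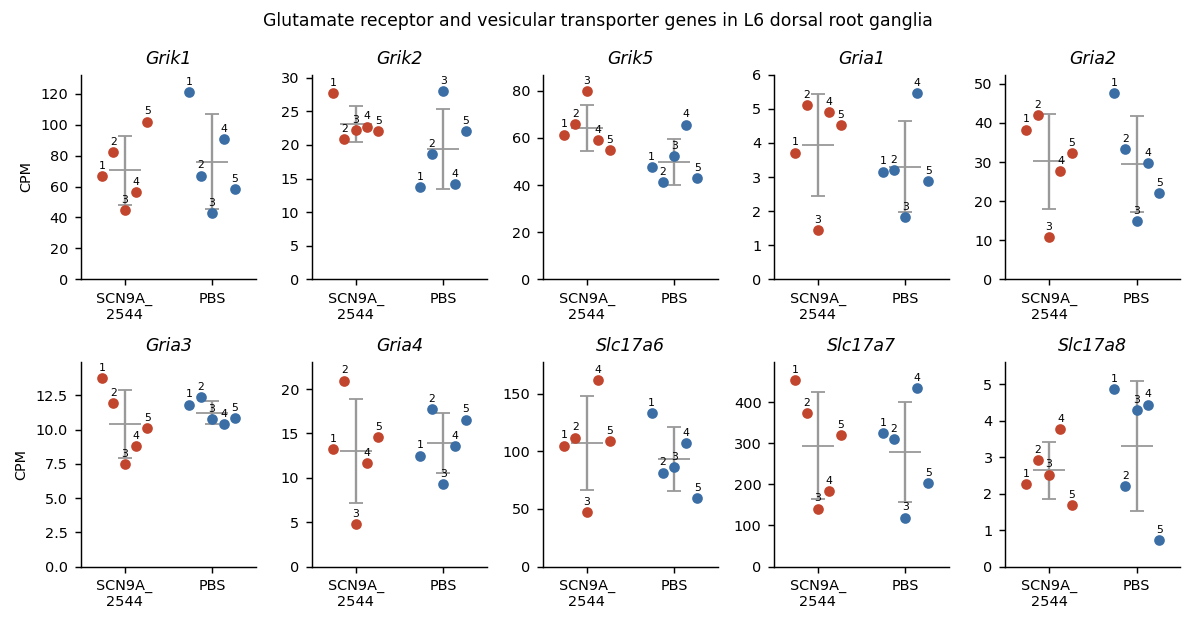
CPM (counts scaled to library size, linear axis from 0) of each of the 10 genes in the 5 SCN9A_2544 libraries (red, left) and the 5 PBS libraries (blue, right), with replicate numbers at the points and grey bars for the mean and SD. The groups overlap for all 10 genes, and replicate 3 of both groups is the lowest library of its group for Grik1, Gria1, Gria2, Gria4 and Slc17a7.

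Among the kainate receptor subunits, Grik1 encodes GluK1, which forms channels on its own or with other subunits. Grik1 was at 66.6, 82.0, 44.9, 56.5 and 102 CPM in SCN9A_2544 replicates 1 to 5, against 121, 67.1, 42.9, 90.8 and 58.5 CPM in PBS replicates 1 to 5. Replicate 3 was lowest in both groups, the highest library was a PBS one, and the groups overlapped over most of their range. The log2 fold change was -0.11 (SE 0.29, 95% interval -0.74 to 0.52), with an adjusted p of 0.987 by edgeR's quasi-likelihood test.

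Grik2 encodes GluK2, the subunit that dominates kainate receptors in much of the brain. Its levels were 27.8, 20.9, 22.2, 22.7 and 22.1 CPM in SCN9A_2544 replicates, against 13.7, 18.6, 28.0, 14.2 and 22.1 CPM in PBS replicates. The SCN9A_2544 libraries were tightly grouped apart from replicate 1, and the PBS libraries spread on both sides of them, with the neuron-poor replicate 3 highest and the neuron-rich replicates 1 and 4 lowest. Its log2 fold change was 0.26 (SE 0.20, interval -0.18 to 0.69, edgeR adjusted p = 0.963).

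Grik5 encodes GluK5, which binds glutamate with high affinity and needs a GluK1, GluK2 or GluK3 partner to form a channel. It was at 61.4, 65.9, 80.0, 59.1 and 54.8 CPM in SCN9A_2544 replicates, against 47.7, 41.3, 52.3, 65.7 and 43.0 CPM in PBS replicates. Every SCN9A_2544 library lay above 4 of the 5 PBS libraries, and PBS replicate 4 fell among the treated values, so the groups overlapped. The fold was 1.29 (95% interval 1.01 to 1.63), or 0.36 on the log2 scale (SE 0.16), with an adjusted p of 0.963 by edgeR and an exact permutation p of 0.0476. Grik5 was 1 of 642 genes (4.23% of those tested) with an unadjusted edgeR p under 0.05, here 0.0395. Without SCN9A_2544 replicate 3, its highest library, the log2 fold change was 0.24, and that unadjusted p was above 0.05 in 6 of the 10 fits that left out 1 library. Among 14 marker lists compared, the mean log2 CPM of 3 was also higher in the SCN9A_2544 group at an unadjusted exact permutation p under 0.05. Satellite glia (12 of 12 genes tested) averaged 7.03 ± 0.0870, range 6.93 to 7.13, in SCN9A_2544 and 6.79 ± 0.163, range 6.59 to 6.93, in PBS libraries (exact permutation p = 0.0159). Macrophages (11 of 11) averaged 4.08 ± 0.387, range 3.65 to 4.605, in SCN9A_2544 and 3.57 ± 0.249, range 3.24 to 3.93, in PBS libraries (exact permutation p = 0.0397). Nerve injury genes (11 of 14) averaged 4.68 ± 0.787, range 3.85 to 5.82, in SCN9A_2544 and 3.63 ± 0.143, range 3.46 to 3.79, in PBS libraries (exact permutation p = 0.00794). Their part in the Grik5 difference was not tested.

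Of the AMPA receptor subunits, GluA2, encoded by Gria2, makes the channel nearly impermeable to calcium once its message has been edited. Gria2 was at 38.3, 42.0, 10.7, 27.7 and 32.3 CPM in SCN9A_2544 replicates, against 47.6, 33.3, 14.9, 29.6 and 21.96 CPM in PBS replicates. Replicate 3 was far below the rest in both groups, and the group means were close, 30.2 ± 12.2 CPM in SCN9A_2544 and 29.5 ± 12.4 CPM in PBS (SD, n = 5 each). The log2 fold change of 0.03 (SE 0.36, interval -0.75 to 0.82, edgeR adjusted p = 0.997) was -0.0031 with upper-quartile scaling. The interval holds folds from 0.593 to 1.77, so changes within those limits were not excluded. It is not a limit of detection.

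Gria1 encodes GluA1, a subunit inserted at synapses during potentiation in the brain and spinal cord, and was among the sparsest of the set in reads. It had 3.72, 5.10, 1.43, 4.91 and 4.51 CPM in SCN9A_2544 replicates, against 3.16, 3.19, 1.83, 5.47 and 2.87 CPM in PBS replicates. The lowest library of each group was again replicate 3, and the highest was a PBS library. Its log2 fold change was 0.26 (SE 0.36, interval -0.54 to 1.05, edgeR adjusted p = 0.975).

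Gria3 and Gria4 encode GluA3 and GluA4, and GluA4 gives AMPA receptors fast kinetics. Gria3 spanned the smallest range of the 10 genes, at 13.8, 11.9, 7.49, 8.82 and 10.1 CPM in SCN9A_2544 replicates, against 11.8, 12.4, 10.7, 10.4 and 10.8 CPM in PBS replicates. Gria4 was at 13.2, 20.9, 4.77, 11.6 and 14.5 CPM in SCN9A_2544 replicates, against 12.5, 17.8, 9.27, 13.6 and 16.6 CPM in PBS replicates. The PBS values of both genes lay inside the wider range of the SCN9A_2544 values. The log2 fold changes were -0.11 for Gria3 (SE 0.18, interval -0.50 to 0.28) and -0.10 for Gria4 (SE 0.32, interval -0.80 to 0.60), with edgeR adjusted p-values of 0.976 and 0.990.

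Of all reads on the 4 AMPA genes, Gria2 held 51.3 ± 4.38% in SCN9A_2544 libraries and 49.2 ± 9.07% in PBS libraries (SD, n = 5 each). Both extremes were PBS libraries. Replicate 1 had 63.4% of its 1093 AMPA reads on Gria2 (95% Wilson interval 60.5 to 66.2%), and replicate 3 had 40.5% of 523 (36.4 to 44.8%). These intervals do not overlap, so the makeup of the AMPA reads differed between untreated ganglia beyond counting error, which is all the intervals cover. These are shares of reads, which also depend on transcript length, and transcript lengths were not used here.

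The vesicular transporters set how glutamate is packed. Slc17a6 was at 105, 112, 46.9, 162 and 109 CPM in SCN9A_2544 replicates, against 133, 81.5, 86.1, 107 and 59.6 CPM in PBS replicates. Replicates 3 and 4 of the SCN9A_2544 group were the lowest and highest of all 10 libraries, so the PBS range lay inside the treated one. For SCN9A_2544 over PBS the log2 fold change was 0.19 (SE 0.29, interval -0.45 to 0.83, edgeR adjusted p = 0.976).

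Slc17a7 was at 454, 374, 141, 184 and 321 CPM in SCN9A_2544 replicates, against 326, 311, 119, 435 and 204 CPM in PBS replicates. Each group held libraries at both ends. The difference was 0.08 on the log2 scale (SE 0.37, interval -0.73 to 0.89, edgeR adjusted p = 0.994).

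Slc17a8, the VGLUT3 gene, had few reads, with 2.26, 2.92, 2.52, 3.78 and 1.68 CPM in SCN9A_2544 replicates and 4.88, 2.20, 4.29, 4.44 and 0.734 CPM in PBS replicates. PBS replicates 1, 3 and 4 were the highest of all 10 libraries and PBS replicate 5 the lowest. The log2 fold change of -0.32 had the widest interval of the 10 genes (SE 0.43, interval -1.26 to 0.62, edgeR adjusted p = 0.975). The C-fibre low-threshold mechanoreceptor list (4 of 5 genes tested), whose cells are known to use VGLUT3, averaged 5.30 ± 0.407 log2 CPM in SCN9A_2544 and 5.43 ± 0.262 log2 CPM in PBS (exact permutation p = 0.619). Its gene Th, at up to 0.61 CPM in SCN9A_2544 and 0.48 CPM in PBS libraries, was left out by the filter on low counts.

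Across the 10 genes, 6 fold changes were above 0 and 4 below (5 and 5 with upper-quartile scaling), with a median log2 fold change of 0.06 beside 0.02 over all tested genes. None was called at an adjusted p under 0.05, where edgeR called 0 genes of the whole table (0% of 15186). Grik5 alone had an unadjusted p under 0.05, and none had groups of libraries that did not overlap, which held for 0.665% of all genes. DESeq2 called 12 genes and limma voom with library weights 1, none of them in the set, and at an unadjusted p under 0.05 they had 815 and 3175 genes, with 1 and 2 of the set.

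**Figure D2:**
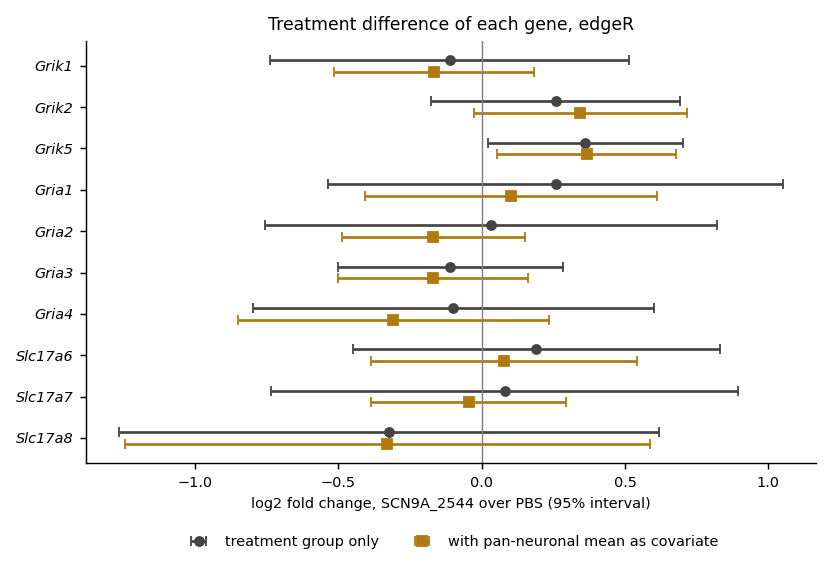
Log2 fold change, SCN9A_2544 over PBS, of each of the 10 genes with its 95% interval by edgeR, from the fit on treatment alone (grey circles) and from the fit that also held the pan-neuronal mean (ochre squares). Only the Grik5 intervals, 0.02 to 0.70 and 0.05 to 0.68, lie wholly above 0, and the covariate narrows the intervals of all 10 genes.

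The spread between ganglia was then set against neuron content, because the pan-neuronal mean varied within both groups. With treatment group in the fit, 6 of the 10 genes were higher where the pan-neuronal mean was higher and 0 were lower. Over all genes outside the list, 21.9% were called higher and 20.7% lower. The slope, in log2 CPM per log2 unit of the pan-neuronal mean, was 1.25 for Gria2 (SE 0.16, edgeR adjusted p = 1.07e-04), 1.20 for Slc17a7 (SE 0.17, adjusted p = 1.70e-04) and 1.07 for Gria1 (SE 0.26, adjusted p = 0.00557). A slope of 1 means that a gene varied in proportion with the pan-neuronal list, and the intervals of these 3 genes (0.90 to 1.60, 0.84 to 1.56 and 0.51 to 1.63) all included it. Grik1 had a slope of 0.83 (SE 0.17, adjusted p = 0.00200), Gria4 of 0.80 (SE 0.28, adjusted p = 0.0344) and Slc17a6 of 0.71 (SE 0.23, adjusted p = 0.0244). Their intervals (0.46 to 1.19, 0.20 to 1.40 and 0.22 to 1.21) also included a slope of 1.

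Grik2 had a slope of -0.34 (SE 0.17, interval -0.72 to 0.03, edgeR adjusted p = 0.125) and Grik5 of -0.08 (SE 0.14, interval -0.38 to 0.22, adjusted p = 0.682). The intervals of both lie below a proportional slope. Gria3 likewise had a slope of 0.31 with an upper limit of 0.65 (adjusted p = 0.128). The slope of Slc17a8, 0.21, had an interval of -0.69 to 1.11 that holds both no relation and a proportional one. Among the kainate subunits, the interval of the Grik1 slope (0.46 to 1.19) did not overlap that of Grik2 or Grik5, though the differences between slopes were not themselves tested. Log2 CPM of Grik1 and Grik2 had a Pearson r of -0.70 over the 10 libraries, as a description of these libraries.

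Because CPM values share a total, a library with less neuronal RNA has more of other RNA, and the pan-neuronal and Schwann cell means had a Pearson r of -0.95 over the 10 libraries. On the Schwann cell and myelin mean, 5 of the 10 genes had a negative slope at an adjusted p under 0.05 and 0 a positive one, beside 20.8% lower and 19.6% higher among all genes. They were Gria2 (-0.76, edgeR adjusted p = 8.59e-04), Slc17a7 (-0.75, adjusted p = 0.00147), Grik1 (-0.55, adjusted p = 0.00215), Gria1 (-0.59, adjusted p = 0.0375) and Slc17a6 (-0.48, adjusted p = 0.0206). Less neuronal RNA and more Schwann cell RNA in a library cannot be told apart here.

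**Figure D3:**
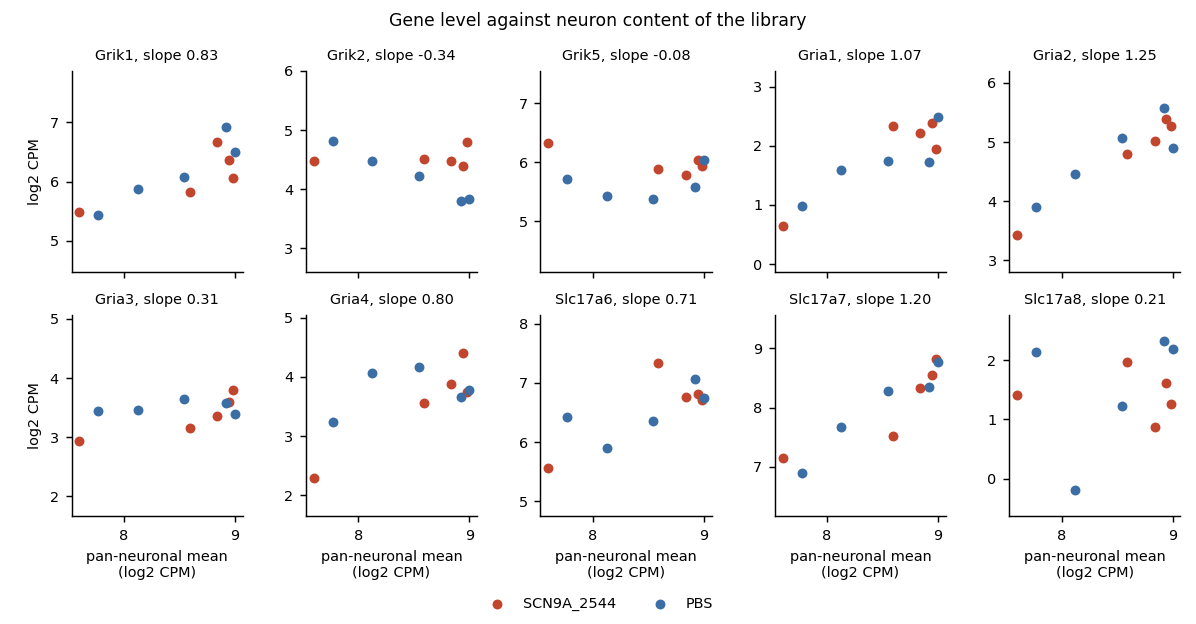
Log2 CPM of each of the 10 genes (vertical axis) against the mean log2 CPM of 20 pan-neuronal genes (horizontal axis) in the SCN9A_2544 (red) and PBS (blue) libraries, with the slope from edgeR in each title. Gria2 and Slc17a7 climb most steadily, at 1.25 and 1.20 log2 units per unit, Grik5 is flat at -0.08, and the 3 libraries lowest on the horizontal axis lie apart from the other 7.

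The slopes rest in part on few libraries. Those of Grik1, Gria2 and Slc17a7 were called whichever single library was left out. Without SCN9A_2544 replicate 3, the library with the least neuronal RNA, 3 genes of the set were called higher and Grik2 was called lower, at -0.75 (edgeR adjusted p = 0.0112), while Gria1 (0.80, adjusted p = 0.0893), Slc17a6 (0.36, adjusted p = 0.323) and Gria4 (0.30, adjusted p = 0.505) no longer passed. Within the 7 libraries of highest pan-neuronal mean, a set picked after seeing the data, edgeR called no gene of the whole table (2493 had an unadjusted p under 0.05) and the slopes were 1.80 for Slc17a7, 1.24 for Grik1, 0.87 for Gria2, 0.32 for Gria1, -0.063 for Gria4 and -0.16 for Slc17a6.

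In the fit that held neuron content as a covariate, none of the set was called for treatment (0 of 10, beside 0.00659% of all genes, which is Scn9a alone at a log2 fold change of -1.14 and an edgeR adjusted p of 0.0385). Grik5 was at 0.37 (interval 0.05 to 0.68, adjusted p = 0.511), and at 0.19 without SCN9A_2544 replicate 3 and 0.53 without PBS replicate 4. The interval of Slc17a7 narrowed to -0.39 to 0.29 around -0.05, and that of Gria2 to -0.49 to 0.15 around -0.17. Both intervals lie within 1 log2 unit of 0.

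The 2 main vesicular transporters were compared within each library, where depth and scaling cancel. Slc17a7 had 4.33, 3.35, 3.01, 1.14 and 2.96 reads per Slc17a6 read in SCN9A_2544 replicates, against 2.45, 3.82, 1.39, 4.06 and 3.42 in PBS replicates. The low libraries were SCN9A_2544 replicate 4 and PBS replicate 3, and the group means were 2.96 ± 1.16 in SCN9A_2544 and 3.03 ± 1.10 in PBS (SD, n = 5 each). Log2 CPM of the pair had a Pearson r of 0.44 over the 10 libraries. Both had a called positive slope on the pan-neuronal mean, but that of Slc17a6 lost its call without SCN9A_2544 replicate 3 or PBS replicate 1. Once treatment group and the pan-neuronal mean were taken out, the residuals had an r of -0.95, and of -0.98 to -0.89 when any 1 library was left out (n = 10 libraries, a description, with both genes read from the same libraries). The signs were opposite in 9 libraries, and in SCN9A_2544 replicate 5 both genes lay just below their fitted level. The fit ties the residuals of a gene to each other, so these signs are not independent. Of all pairs among the 10 genes this residual r was the strongest, followed by 0.76 for Grik2 with Gria3. Genes outside the set, picked from all tested genes, reached residual r of larger size, 0.99 for Slc9a9 with Slc17a6 and 0.97 for Cit with Slc17a7. How often gene pairs reach such an r in these libraries was not counted.

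SCN9A_2544 replicate 4 stood at one end, with Slc17a6 0.70 log2 units above and Slc17a7 0.55 below their fitted levels. That ganglion library also had the highest means of the peptidergic nociceptor list (7.27 log2 CPM) and of the nerve injury list (5.82 log2 CPM), 2 lists that share genes such as Gal. Its mean over the list of large myelinated sensory neurons, 6.38 log2 CPM, lay inside the 5.87 to 6.77 log2 CPM of its group. PBS replicate 3, at the same end with 0.46 above for Slc17a6 and 0.25 below for Slc17a7, had a peptidergic mean of 5.40 and an injury mean of 3.51 log2 CPM. Unlike the residuals, these list means were not adjusted for the pan-neuronal mean, which was 7.77 log2 CPM in PBS replicate 3 and 8.59 log2 CPM in SCN9A_2544 replicate 4. The part of neuron subtypes in the transporter ratio was not tested.

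**Figure D4:**
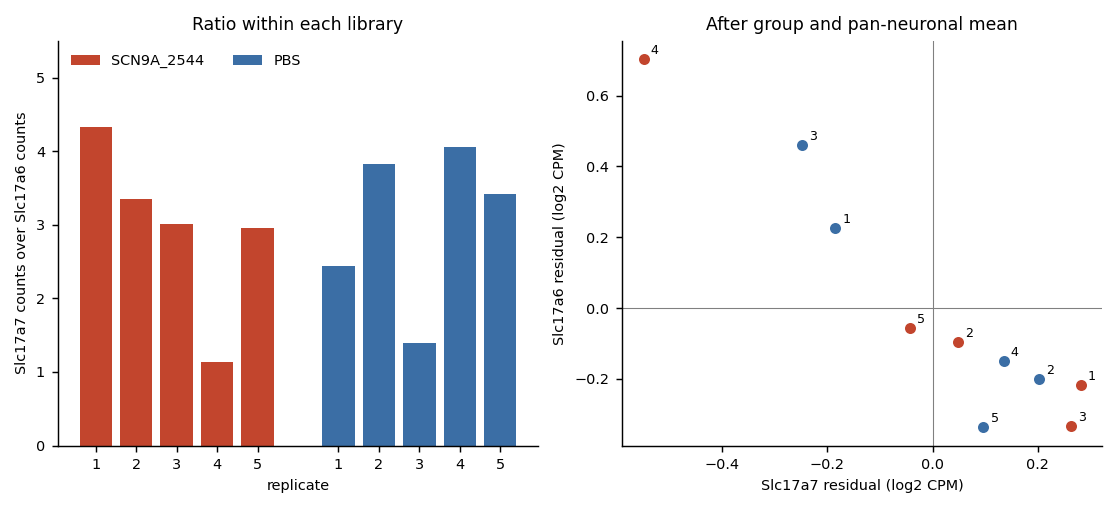
Left, estimated counts of Slc17a7 per count of Slc17a6 in each library (bars from 0, SCN9A_2544 in red, PBS in blue); right, residual log2 CPM of Slc17a6 against that of Slc17a7 after treatment group and the pan-neuronal mean, with replicate numbers. The ratio is lowest in SCN9A_2544 replicate 4 (1.14) and PBS replicate 3 (1.39), and the residuals run downward from upper left to lower right.

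The stretch before the start of these 2 transporter genes is shown because their deviations had opposite signs in 9 of 10 libraries. Both windows hold the 250 bases before the RefSeq start on the plus strand of build GRCr8, a later build than the mRatBN7.2 of the submitters' processing notes, and 7 of the 10 genes had an entry in the RefSeq table. The windows are chr1:110348197-110348446 for Slc17a6 and chr1:104785955-104786204 for Slc17a7. Capitals mark matches, on either strand, to the GC box (GGGCGG), the E-box (CAGCTG), the CRE half-site (TGACG) or the TATA box (TATAAA).
Slc17a6: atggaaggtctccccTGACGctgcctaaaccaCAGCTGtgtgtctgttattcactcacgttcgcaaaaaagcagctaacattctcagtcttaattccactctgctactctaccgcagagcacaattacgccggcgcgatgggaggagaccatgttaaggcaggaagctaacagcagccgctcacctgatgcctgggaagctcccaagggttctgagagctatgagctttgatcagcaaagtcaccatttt
Slc17a7: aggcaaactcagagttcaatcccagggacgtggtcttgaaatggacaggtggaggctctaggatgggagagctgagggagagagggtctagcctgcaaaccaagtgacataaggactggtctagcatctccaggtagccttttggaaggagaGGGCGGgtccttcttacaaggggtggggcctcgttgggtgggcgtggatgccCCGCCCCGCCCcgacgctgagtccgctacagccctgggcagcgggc
The Slc17a7 window held 3 GC boxes, the last 2 of them overlapping, and the Slc17a6 window none. The GC box is in 30.5% of the 33469 windows of the same length in the table. Slc17a6 had 1 E-box (in 11.97% of windows) and 1 CRE half-site (in 18.2%), and neither window held the TATA box (in 12.9%). The Slc17a7 window was 61.2% G or C and the Slc17a6 window 50.8%, beside a median of 51.2%. These are letter matches only.

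The genes most like each of the 10 were named by Pearson r of log2 CPM over the 10 libraries, outside the set and the pan-neuronal list. Grik1 was most like Acp3 (r = 0.97), the prostatic acid phosphatase that marks non-peptidergic nociceptors, followed by RGD1560212 (0.96) and Larp1b (0.95). Gria2 was most like Slc7a1 and Glrx (0.99 each), Slc17a7 like Tmem132e, Nat8l and Epn3 (0.99 each), Slc17a6 like Gprasp2 and Hacd3 (0.98 each), and Gria1 like Strip2 (0.98) and the galanin receptor gene Galr1 (0.97). For the genes with no called slope the nearest were Rhot2 for Grik5 (0.97), Lrig2 for Gria3 (0.93), Ildr2 for Grik2 (0.90) and Immp2l for Slc17a8 (0.89), and for Gria4 it was Necab1 (0.95). Acp3 stayed among the 3 nearest to Grik1 (r = 0.89), and Necab1 among those nearest to Gria4 (r = 0.96), on the residuals after treatment group and the pan-neuronal mean. These likenesses were picked from all tested genes in 10 libraries and are given as a description.

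The rest of the glutamate pathway was read from a list of 77 genes by role, of which 66 were tested. None passed the test for treatment (0 of 66 by edgeR, DESeq2 or limma voom). At an unadjusted p under 0.05 edgeR had 4 of the 66, Grik3, Gsg1l, Shank3 and Grin2d, beside 4.23% of all genes. Of the 66 fold changes 60 were above 0 and 6 below, with a median log2 fold change of 0.19, while 8108 of all 15186 tested genes lay above 0, or 53.4%, with a median of 0.02. Under the pan-neuronal covariate 53 of the 66 were above 0, with a median of 0.13. The count ran from 50 to 61 of 66 when single libraries were left out, with medians from 0.09 to 0.31, and was 56 of 66 with upper-quartile scaling, and 47 of 66, median 0.06, in the 7 libraries of highest pan-neuronal mean. Since 38 of the 66 had a called positive slope on the pan-neuronal mean and 5 a negative one, these genes share variation and their directions are not independent of each other.

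Among the other ionotropic receptors, Grik3, which encodes the low-affinity kainate subunit GluK3, had groups that did not overlap. It was at 5.18, 5.44, 3.75, 3.78 and 7.41 CPM in SCN9A_2544 replicates, against 1.65, 2.93, 2.81, 2.99 and 1.94 CPM in PBS replicates. All 5 SCN9A_2544 libraries were above all 5 PBS libraries, and its slope on the pan-neuronal mean was not called (0.24, edgeR adjusted p = 0.492). The log2 fold change was 1.05 (SE 0.27, interval 0.47 to 1.64), with an unadjusted p of 0.00210, an adjusted p of 0.963 by edgeR, and an exact permutation p of 0.00794, the smallest possible. Left out 1 library at a time, the value stayed between 0.88 and 1.14, and DESeq2 gave an adjusted p of 0.119. Groups did not overlap for 2 of the 66 pathway genes, Grik3 and Gsg1l, beside 101 of all 15186 tested genes (0.665%). The part of the nerve injury, satellite glia and macrophage RNA described beside Grik5 was not tested for Grik3 either. Grik4, the other high-affinity kainate subunit, was at 22.5 ± 7.34 CPM in SCN9A_2544 and 20.5 ± 9.13 CPM in PBS libraries (log2 fold change 0.14, edgeR adjusted p = 0.985) and followed neuron content with a slope of 1.15 (adjusted p = 4.68e-05) beside -0.08 for Grik5.

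Of the NMDA receptor genes, Grin1, the obligatory subunit, had a slope of 1.08 on the pan-neuronal mean (edgeR adjusted p = 3.06e-05), and Grin2b had one of -1.64 (adjusted p = 0.00129), the opposite direction. Grin2d was at 3.33 ± 0.642 CPM in SCN9A_2544 and 2.30 ± 0.516 CPM in PBS libraries (log2 fold change 0.54, adjusted p = 0.963), and Grin3b at 5.62 ± 2.00 CPM in SCN9A_2544 and 4.43 ± 2.25 CPM in PBS libraries (log2 fold change 0.35, and 0.11 without PBS replicate 5). The 3 metabotropic receptor genes that could be tested, Grm4, Grm7 and Grm8, presynaptic receptors that restrain release, had log2 fold changes of 0.30, 0.34 and 0.35 (edgeR adjusted p from 0.967 to 0.975), and all 3 had called slopes, from 1.12 to 1.62. Without SCN9A_2544 replicate 2 the fold changes of Grm4 and Grm8 were 0.10 and 0.13 on the log2 scale, and without PBS replicate 5 that of Grm7 was 0.21.

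Auxiliary subunits ride on AMPA and kainate receptors and set their gating and trafficking. Gsg1l, which slows recovery of AMPA receptors from desensitization, was at 2.60 ± 1.17 CPM in SCN9A_2544 and 1.50 ± 0.304 CPM in PBS libraries, in groups that did not overlap (log2 fold change 0.80, edgeR adjusted p = 0.963). Without SCN9A_2544 replicate 3 the Gsg1l value was 0.46. Shisa7 had a log2 fold change of 0.53 and the cornichon gene Cnih2 of 0.32 (edgeR adjusted p = 0.963 for each), which were 0.24 without SCN9A_2544 replicate 4 for Shisa7 and 0.18 without PBS replicate 3 for Cnih2. Cacng2 (stargazin) followed neuron content with a slope of 1.29 (edgeR adjusted p = 1.63e-04) and Cacng7 with one of 1.11 (adjusted p = 1.87e-05). Neto1 and Neto2, which bind kainate receptors, had slopes of 0.36 and 0.44 that were not called (adjusted p = 0.423 and 0.142). In all, 10 of 20 auxiliary genes tested were called higher with neuron content and 0 lower, beside 21.9% and 20.7% of all genes.

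Among scaffold genes, Shank3 was at 31.2 ± 3.28 CPM in SCN9A_2544 and 22.6 ± 6.21 CPM in PBS libraries (log2 fold change 0.47, edgeR adjusted p = 0.963), Shank2 had a log2 fold change of 0.51 and Grip1, which holds GluA2 and GluA3 at the membrane, of 0.41. Of 16 scaffold genes tested, 10 were called higher with neuron content and Dlg1 and Homer3 lower, against the same shares of all genes. In the group for glutamate synthesis, release and uptake, Slc1a1 (log2 fold change 0.50), Slc1a6 (0.83) and the glial transporter Slc1a3 (0.29) had the lowest unadjusted p-values (edgeR adjusted p = 0.963 for each), and Slc1a5 and Slc3a2 were called lower with neuron content. The editing enzyme Adarb1, which recodes the Gria2 message, was at 81.3 ± 22.05 CPM in SCN9A_2544 and 70.7 ± 28.1 CPM in PBS libraries (log2 fold change 0.20, edgeR adjusted p = 0.975) and had a slope of 0.92 (adjusted p = 1.51e-04), while Adar had a log2 fold change of 0.16 and Adarb2, with few reads, of 0.90. The Adarb1 value was 0.040 without PBS replicate 3, the Adar value 0.099 without PBS replicate 5 and the Slc1a3 value 0.16 without SCN9A_2544 replicate 4.

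**Figure D5:**
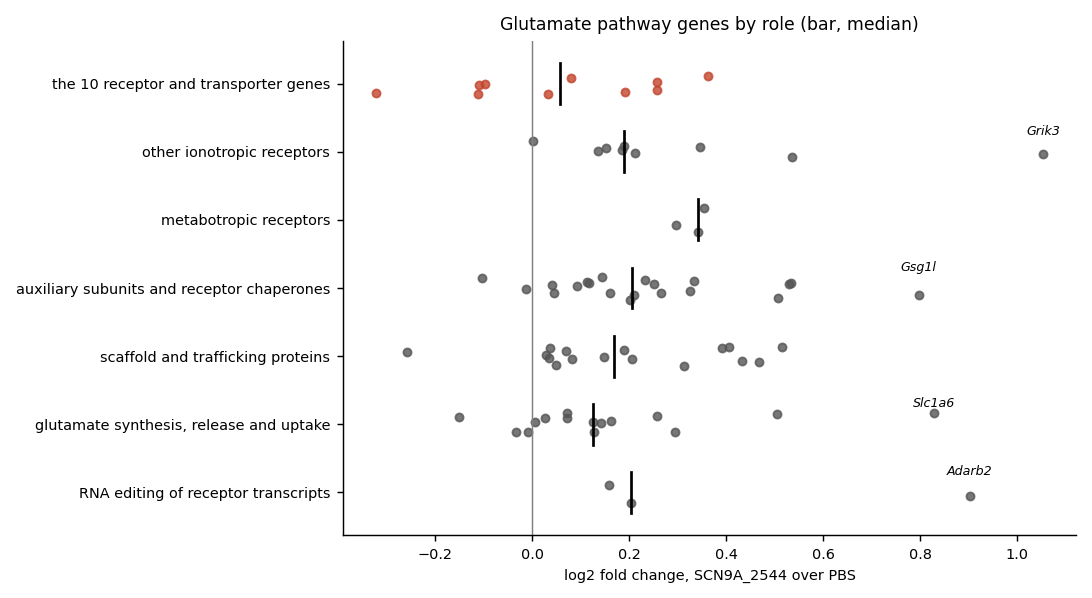
Log2 fold change, SCN9A_2544 over PBS, of each tested gene (points) by role, with a bar at the median of the role: the 10 receptor and transporter genes (red, top) and 66 other glutamate pathway genes (grey). The 10 genes scatter around a median of 0.06, the medians of the other roles lie between 0.13 and 0.34, Grik3 is farthest to the right at 1.05, and no gene passed the adjusted test.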

How the data were processed

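Bulk poly(A) RNA was sequenced as paired reads from 10 rat L6 DRG libraries, 5 SCN9A_2544 and 5 PBS. The authors deposited unnormalized estimated counts for each gene. STAR 2.7.10a and DESeq2 1.44.0 are listed, without their roles, in the submitters' processing notes, as is the build mRatBN7.2. How reads were assigned to genes, with which annotation and strand setting, is not given in the sources used here. Raw counts had been assumed in the design. Estimated counts were therefore rounded to whole numbers, which moved the values of the 10 genes by at most 0.001.

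Genes were filtered with filterByExpr (minimum count 10, minimum total 15), libraries were scaled by TMM, and edgeR 4.0.16 in R 4.3.3 gave quasi-likelihood F-tests of treatment, of treatment beside the pan-neuronal mean (20 genes), and of the slope on that mean. P-values were Benjamini-Hochberg adjusted over all tested genes, with a threshold of 0.05. The median SE of a log2 fold change was 0.22. CPM are TMM-scaled, and log2 CPM use a prior count of 2. Standard errors are the size of the estimate over the square root of F. Exact permutation tests were two-sided, on mean log2 CPM. The scripts were tested on simulated data. Alternatives were DESeq2 1.42.0, limma 3.58.1 (voom), other scalings, no filter, a Schwann cell covariate, a replicate block, and each library left out. The genes, the lists and the tests were chosen with earlier results of these data known. The named genes were the 10, Scn9a, up to 3 genes of lowest p per role, and 3 most like each gene. The other genes of the pathway list that are named, and Gal, Prph and the central glia and spinal cord genes, were chosen after their values were seen. The Schwann cell slope and the set of 7 libraries were added after seeing the data.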

Additional observations from a re-analysis of the deposited data

Results flagged for a closer look

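Grik2 in SCN9A_2544 replicate 1 stood at 27.8 CPM, above the other 4 SCN9A_2544 libraries at 20.9 to 22.7 CPM. Its gap to the nearest library was 0.732 of the group's whole range, over the critical value of 0.71 for 5 samples. Among PBS libraries Grik2 reached 28.0 CPM in replicate 3. Chance flags about 1 in 20 groups, and 20 groups of 5 libraries were examined.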

How the results depend on the processing

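The 28 genes with a named treatment fold change (the 10 genes and 18 of the pathway list) gave 504 values under the alternatives, of which 483 kept their direction, without an edgeR call, and 21 changed sign. With the pan-neuronal covariate 153 of 160 values kept both and 7 changed sign. Of 160 slopes, 138 kept direction and call, 16 lost the call, 1 gained it and 5 changed sign. No alternative called any of the 10 genes for treatment.

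The number of genes called for treatment, 0, became 12 with DESeq2, 1 with limma voom, 1 with the Schwann cell covariate, 1 in the 7 libraries of highest pan-neuronal mean and 0 to 1 when single libraries were left out (1 without SCN9A_2544 replicate 2 or 3). With the pan-neuronal covariate the count of 1 became 3 with no filter, 51 with DESeq2, and 0 to 5 without single libraries: 0 without PBS replicate 1, 2, 3 or 5 or SCN9A_2544 replicate 1 or 5, 3 without PBS replicate 4 and 5 without SCN9A_2544 replicate 4. The 6453 genes called for their slope, and the 6 of the set among them, both became 0 in the 7 libraries, and the set had 4 to 6 calls without single libraries.

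Fold changes that changed sign were those of Gria2 (-0.0031 with upper-quartile scaling, -0.21 with the Schwann cell covariate, -0.10 in the 7 libraries), Slc17a7 (-0.14 with the Schwann cell covariate, -0.12 in the 7 libraries), Grik1 (0.14) and Slc17a8 (0.15) with limma voom, and Gria4 (0.018) and Grin3b (-0.11) in the 7 libraries. Without single libraries Grik1 ran from -0.28 to 0.12, Gria2 from -0.13 to 0.27, Gria4 from -0.34 to 0.078, Slc17a6 from -0.0078 to 0.35 and Slc17a7 from -0.13 to 0.30. With the covariate Gria1 ran from -0.030 to 0.24, Slc17a6 from -0.15 to 0.26 and Slc17a7 from -0.21 to 0.069, and Gria4 was at 0.020 in the 7 libraries. The slope of Grik5 ran from -0.23 to 0.16 without single libraries and was 0.73 in the 7 libraries, where that of Gria4 was -0.063 and that of Slc17a6 -0.16. The slope of Gria4 also lost its call without PBS replicate 3 or SCN9A_2544 replicate 2, and that of Slc17a6 without PBS replicate 1. The cause of these shifts was not tested, beyond fewer libraries where libraries were left out.

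Whether the replicate numbers shared by the groups pair the libraries could not be decided from 5 correlations. Same-numbered libraries had correlations of deviations of 0.379, 0.005, 0.567, -0.00625 and 0.051, and 2 of 5 (replicates 1 and 3) correlated best with their own number. With the replicate block the counts of genes called were 0 for treatment, 0 with the covariate, 0 for the slope and 0 of the set for the slope, with 2174 genes at an unadjusted slope p under 0.05, and the slope of Grik5 was 0.35. Gria1 and Slc17a8 had only a few CPM, and the spread between ganglia sets the width of the other intervals.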
